A study of Mus musculus with 8 samples.

Results

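The genes described here build and police the mitotic spindle. They are 43 genes of mitotic entry, the spindle checkpoint, the kinetochore, condensin and cytokinesis, chosen by name, and all 43 had a row among the 16279 genes of the input table. Of the 2114 differential N6-methyladenosine (m6A) peaks in the second table, 18 lay on 13 of them. The cells were N2a, a mouse neuroblastoma line, transfected with a small interfering RNA (siRNA) against Emg1 (siEmg1) or with a control siRNA (siCtrl), in the same lipid reagent, and collected after 48 h. Emg1 encodes a methyltransferase of 18S ribosomal RNA. Poly(A) RNA was sequenced as input and after immunoprecipitation with an m6A antibody (IP), which gave 4 groups of 2 libraries: siEmg1 IP, siEmg1 input, siCtrl IP and siCtrl input. The labels name 1 cell line, state no sorting or synchronisation by cell cycle phase, and say nothing of separate cultures behind the 2 libraries of a group, so p-values may measure technical spread.

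Mitotic entry is driven by Cdk1 bound to cyclin A or B, and by Polo-like and Aurora kinases. Kinetochores built on centromeric chromatin then bind spindle microtubules, the spindle checkpoint holds back the anaphase-promoting complex until every chromosome is attached, and separase cuts cohesin once securin and cyclin B have been degraded. Transcription of these genes peaks late in the cell cycle. It is repressed by the DREAM complex in quiescence and G1 and activated by B-Myb and Foxm1, and many of their promoters carry a cell cycle genes homology region (CHR) and CCAAT boxes, the sites of NF-Y. In dividing cells bulk RNA averages over all phases, so a smaller share of cells in mitosis and less RNA per mitotic cell cannot be told apart.

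Because the promoters of these genes share this layout, 4 are shown: among members with a promoter in the RefSeq table (GRCm38.p6), those with the smallest adjusted p in input RNA, 2 that rose (Cenpe and Mki67) and 2 that fell (Cenpa and Anln). Each runs 5′ to 3′ from 250 bases before to 50 after the annotated start. Capitals mark the CHR letters TTTGAA or TTCGAA and the CCAAT box, on either strand. The windows are chr3:135212313-135212612 on the plus strand for Cenpe, chr7:135716330-135716629 on the minus strand for Mki67, chr5:30666636-30666935 on the plus strand for Cenpa and chr9:22389157-22389456 on the minus strand for Anln.
Cenpe: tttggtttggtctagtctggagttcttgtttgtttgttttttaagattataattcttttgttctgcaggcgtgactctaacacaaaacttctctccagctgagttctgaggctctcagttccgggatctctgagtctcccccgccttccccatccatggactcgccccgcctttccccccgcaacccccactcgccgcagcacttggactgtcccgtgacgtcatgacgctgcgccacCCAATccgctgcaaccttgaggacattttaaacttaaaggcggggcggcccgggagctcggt
Mki67: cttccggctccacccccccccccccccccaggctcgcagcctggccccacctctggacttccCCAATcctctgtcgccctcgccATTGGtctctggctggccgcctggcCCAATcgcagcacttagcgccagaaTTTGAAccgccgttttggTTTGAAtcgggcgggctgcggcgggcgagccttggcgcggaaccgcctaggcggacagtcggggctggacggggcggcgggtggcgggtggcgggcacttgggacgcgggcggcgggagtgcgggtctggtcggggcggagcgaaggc
Cenpa: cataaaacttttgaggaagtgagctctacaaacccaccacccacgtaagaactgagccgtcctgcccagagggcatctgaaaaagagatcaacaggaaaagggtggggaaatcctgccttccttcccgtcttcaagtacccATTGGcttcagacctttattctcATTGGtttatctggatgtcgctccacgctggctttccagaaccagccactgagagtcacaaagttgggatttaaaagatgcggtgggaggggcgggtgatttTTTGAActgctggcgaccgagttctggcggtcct
Anln: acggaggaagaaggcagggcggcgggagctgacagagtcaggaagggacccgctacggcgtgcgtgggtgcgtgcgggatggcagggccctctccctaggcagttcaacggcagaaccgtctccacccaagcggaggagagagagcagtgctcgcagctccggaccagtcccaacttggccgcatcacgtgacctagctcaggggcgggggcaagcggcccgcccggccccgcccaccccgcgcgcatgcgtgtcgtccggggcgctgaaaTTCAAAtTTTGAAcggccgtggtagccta

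In Mki67, 3 CCAAT boxes centred 186, 164 and 139 bases before the start are followed by 2 CHR matches at 113 and 95 bases before it. Cenpa has 2 CCAAT boxes 107 and 84 bases before the start and 1 CHR match 19 bases after it. In Anln the 2 CHR matches, 24 and 31 bases after the start, stand side by side in opposite orientation, with no CCAAT in the window. The Cenpe window holds 1 CCAAT box 10 bases before the start and no CHR letters. The layout was thus present in promoters of genes that rose and of genes that fell.

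Promoters were matched for 35 of the 43 genes. Foxm1, Ccna2, Cdc25c, Aurkb, Incenp, Spc24, Tpx2 and Smc4 had none. The CHR letters were in the promoters of 25 of 35 members (71.4%), against 20.2% of 17492 protein-coding RefSeq genes and 21.7% of all 27025 genes in that table. CCAAT was in 26 of 35 (74.3%), against 42.3% of the protein-coding genes, and both motifs were in 23 (65.7%), against 8.22%. Of the 35 members 24 (68.6%) had a CHR match within 100 bases of the start, against 8.90% of protein-coding genes. In 1 member window a CHR match overlapped a CCAAT match. By input call, 13 of 15 members that rose, 4 of 5 that fell and 8 of 15 that were not called carried the CHR letters. The members were chosen by function, and none of these matches shows binding.

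**Figure D1:**
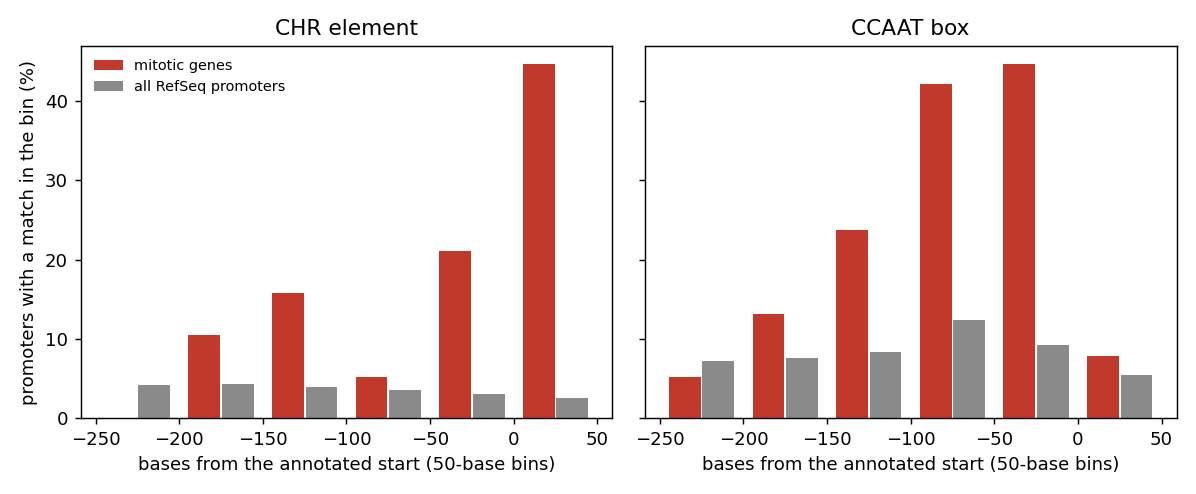
Share of promoters (%) with a match centred in each 50-base bin from 250 bases before to 50 after the annotated start, for 38 promoter windows of 35 mitotic genes (red) and all 32851 RefSeq windows (grey). In the mitotic genes CHR matches were most frequent in the 50 bases after the start (44.7%, against 2.60% of all windows) and CCAAT in the 50 bases before it (44.7%, against 9.22%).

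The input libraries can be read only through the authors' test, since the tables hold no values per library. Emg1 fell by 1.73 ± 0.11 (log2, SE) in the authors' deposited table, to 30.2% of its siCtrl level (DESeq2 adjusted p = 3.37e-54), and fold changes below are siEmg1 over siCtrl. Of 10 sympathoadrenal neuroblastoma markers all had an adjusted p, with mean normalised counts between 42.6 and 21840 in the authors' deposited table. Of 5 leukocyte markers 1 had a row, Cd74, which fell by 0.74 ± 0.12, and of 6 fibroblast markers 3 had one, of which Pdgfrb fell by 0.98 ± 0.19 in the authors' deposited table. Of 6 endothelial and epithelial markers 4 had a row and only 2, Pecam1 and Krt8, an adjusted p, and 0 of these were called. The part of other cells in the results below was not tested.

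More of the mitotic genes rose than fell after Emg1 knockdown, and the changes were small. By the authors' DESeq2 adjusted p under 0.05, 20 of 43 rose, 5 fell and 18 were not called. At an adjusted p under 0.01 the counts were 14 and 2, and with an absolute log2 fold change of at least 0.3 they were 9 and 1. Shares over all genes were computed only at an adjusted p under 0.05 with no minimum size, so those below cannot be set against these stricter counts. The 20 rising genes lay between 113.7% and 143% of their siCtrl level, and the 5 falling ones between 78.7% and 88.6%. The share that rose was 46.5%, where 17.1% of all 12807 genes with an adjusted p did, and the share that fell was 11.6%, where 15.5% of all did. All 43 are well expressed, with mean normalised counts from 799.6 to 37228 in the authors' deposited table. Among the 7282 genes at or above the lowest of these means, 25.0% rose and 18.8% fell. The counts by role below are to be read against these 2 shares, and no role was tested. The median log2 fold change of the 43 was 0.15, and that of all 12807 genes was -0.0023. The spans of Foxm1, Prc1, Anln and Ncapg, which are among the called genes, overlap that of another coding gene.

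**Figure D2:**
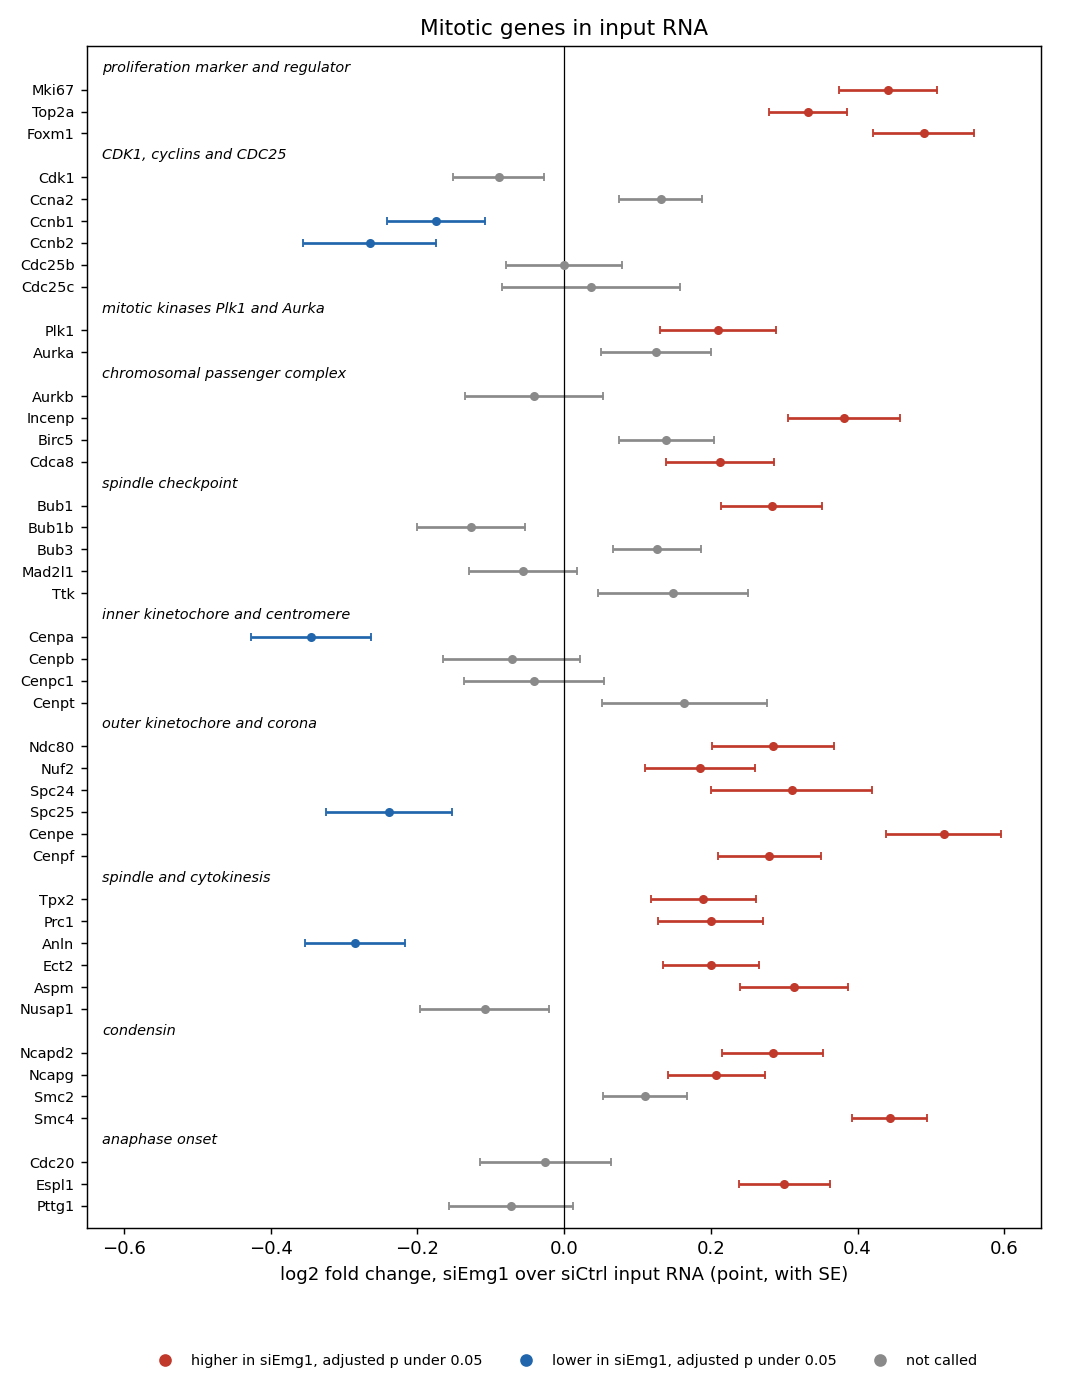
Log2 fold change of siEmg1 over siCtrl input RNA for the 43 mitotic genes by role, with points for the authors' estimate and bars for its SE, red for genes that rose, blue for genes that fell and grey for genes not called. Cenpe stands highest at 0.52 and Cenpa lowest at -0.35.

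The proliferation marker Mki67, the topoisomerase gene Top2a and the transcription factor gene Foxm1 all rose. Foxm1, which activates late cell cycle genes, rose by 0.49 ± 0.07 (log2, SE) to 140.5% of siCtrl in the authors' deposited table (adjusted p = 2.91e-11). Mki67, whose protein coats mitotic chromosomes, rose by 0.44 ± 0.07 to 136% (adjusted p = 1.35e-09), again from the authors' deposited table. Top2a, which untangles sister chromatids, rose by 0.33 ± 0.05 to 126% in the authors' deposited table (adjusted p = 9.43e-09) and had the highest mean of the 43 genes.

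Of the 6 genes chosen for the Cdk1 engine, 2 fell and 4 were not called. The B-type cyclins, which activate Cdk1 at mitotic entry, both fell. Ccnb2 fell by 0.26 ± 0.09 to 83.2% of siCtrl (adjusted p = 0.0140) and Ccnb1 by 0.18 ± 0.07 to 88.6% (adjusted p = 0.0300) in the authors' deposited table. Cdk1 itself had a log2 fold change of -0.09 ± 0.06 (95% interval -0.21 to 0.03) and was not called. Cyclin A2, which acts in S phase and early mitosis, had 0.13 ± 0.06 with an adjusted p of 0.0572 in the authors' deposited table, just outside the threshold. The phosphatase genes Cdc25b and Cdc25c, whose products remove inhibitory phosphates from Cdk1, did not pass either. Their values were -0.00011 ± 0.08 and 0.04 ± 0.12 in the authors' deposited table. None of these 6 genes rose and 2 fell, where 25.0% rose and 18.8% fell among the 7282 genes above. The difference from those shares was not tested. Cdc25a, a relative of Cdc25b and Cdc25c counted in the related lists below, did rise, by 0.50 ± 0.08 to 141% of siCtrl in the authors' deposited table (DESeq2 adjusted p = 2.48e-08).

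Of the mitotic kinases outside that engine, Plk1, which acts from entry to cytokinesis, rose by 0.21 ± 0.08 to 115.6% of siCtrl in the authors' deposited table (adjusted p = 0.0283). Aurka, the spindle pole Aurora kinase, had 0.13 ± 0.07 and an adjusted p of 0.199 in the authors' deposited table.

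The chromosomal passenger complex, which corrects wrong attachments, changed unevenly among its 4 subunits. Its scaffold gene Incenp rose by 0.38 ± 0.08 to 130.3% of siCtrl (adjusted p = 6.08e-06), and Cdca8, which encodes borealin, rose by 0.21 ± 0.07 (adjusted p = 0.0159) in the authors' deposited table. The survivin gene Birc5 had 0.14 ± 0.06 with an adjusted p of 0.0853 in the authors' deposited table. The kinase subunit gene Aurkb had -0.04 ± 0.09 and a 95% interval of -0.23 to 0.14, which does not overlap that of Incenp (0.23 to 0.53). The intervals of Cdca8 (0.07 to 0.36) and Birc5 (0.01 to 0.27) overlapped both.

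In the spindle checkpoint 1 of 5 genes was called. Bub1, the kinase that marks inner centromeres for cohesion protection, rose by 0.28 ± 0.07 to 122% of siCtrl in the authors' deposited table (adjusted p = 0.000307). The components of the mitotic checkpoint complex that inhibits Cdc20 were not called: Bub1b at -0.13 ± 0.07, Bub3 at 0.13 ± 0.06 and Mad2l1 at -0.06 ± 0.07 in the authors' deposited table. Ttk, the kinase Mps1 that starts the signal, had 0.15 ± 0.10 and an adjusted p of 0.278 in the authors' deposited table.

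Among the kinetochore genes of the 43, the inner and outer layers differed in their counts of calls. Of 4 centromere and inner kinetochore genes 0 rose and 1 fell, and of 6 outer kinetochore and corona genes 5 rose and 1 fell. The difference between the layers was not tested. In the wider kinetochore list below, inner genes rose too: Cenph, Cenpn and Apitd1, with the other inner Cenp genes there not called. Of the outer genes there, Mis12, Pmf1, Nsl1, Dsn1 and Casc5 rose, Zwint fell, and Ska1, Ska2 and Ska3 were not called. Cenpa, the histone H3 variant that defines the centromere, fell by 0.35 ± 0.08 to 78.7% of siCtrl in the authors' deposited table (adjusted p = 0.000200), the lowest value of the 43. The centromere DNA binder gene Cenpb had -0.07 ± 0.09, the inner kinetochore gene Cenpc1 -0.04 ± 0.10 and Cenpt, which recruits the outer layer, 0.16 ± 0.11 in the authors' deposited table.

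The highest value of the 43 was that of Cenpe, a kinesin of the fibrous corona that carries chromosomes to the metaphase plate, which rose by 0.52 ± 0.08 to 143% of siCtrl in the authors' deposited table (adjusted p = 1.01e-09). Cenpf, a large coiled-coil protein of the corona, rose by 0.28 ± 0.07 (adjusted p = 0.000476) in the authors' deposited table. The NDC80 complex, which grips the microtubule end, did not move as a unit. Its genes Ndc80 (0.28 ± 0.08), Nuf2 (0.19 ± 0.07) and Spc24 (0.31 ± 0.11) rose, and Spc25 fell by 0.24 ± 0.09, to 84.8% of siCtrl, in the authors' deposited table. The 95% interval of Spc25 (-0.41 to -0.07) overlapped none of the other three, of which the nearest began at 0.04 for Nuf2. The call of Nuf2, with an adjusted p of 0.0432 in the authors' deposited table, was the closest to the threshold among the genes that rose.

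Of 6 genes of the spindle and of cytokinesis 4 rose and 1 fell. Aspm, a spindle pole protein, rose by 0.31 ± 0.07 to 124% of siCtrl in the authors' deposited table (adjusted p = 0.000179). The Aurora A activator gene Tpx2 rose by 0.19 ± 0.07, the midzone bundler gene Prc1 by 0.20 ± 0.07 and Ect2, the activator of RhoA in cytokinesis, by 0.20 ± 0.07 in the authors' deposited table. Anln, which encodes the contractile ring scaffold anillin, fell by 0.28 ± 0.07 to 82.1% of siCtrl in the authors' deposited table (adjusted p = 0.000247). The microtubule binder gene Nusap1, at -0.11 ± 0.09 in the authors' deposited table, was not called.

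The 4 condensin genes among the 43, whose products compact mitotic chromosomes, all had positive values, and 3 of them rose. Of the condensin genes in the related lists below, Ncaph and Ncapg2 rose, Ncaph2 fell and Ncapd3 was not called. Smc4, a core ATPase, rose by 0.44 ± 0.05 to 136% of siCtrl in the authors' deposited table, with the smallest adjusted p of the 43 genes (1.56e-16). Its partner gene Smc2 had 0.11 ± 0.06 and an adjusted p of 0.128 in the authors' deposited table, and the 95% intervals of the pair, 0.34 to 0.54 for Smc4 and -0.0016 to 0.22 for Smc2, did not overlap. The condensin I subunit genes Ncapd2 and Ncapg rose by 0.28 ± 0.07 and 0.21 ± 0.07 in the authors' deposited table.

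At anaphase onset the separase gene Espl1 rose by 0.30 ± 0.06 to 123% of siCtrl in the authors' deposited table (adjusted p = 1.46e-05). Its inhibitor securin (Pttg1) had -0.07 ± 0.08 and Cdc20, which activates the anaphase-promoting complex, -0.03 ± 0.09, and neither was called in the authors' deposited table.

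Genes that work with these ones were read from 9 lists of 145 genes, 144 of them with a row. Of the 144, 58 rose (40.3%), 14 fell (9.72%) and 72 were not called, with a median log2 fold change of 0.16. Of the 10231 genes with a mean at or above the lowest of the 144, 20.8% rose and 17.6% fell, and the counts of each list below are to be read against these shares. The lists were not tested against each other. In the spindle assembly list 14 of 23 rose and 0 fell. The authors' deposited table gave the spindle pole gene Numa1 at 0.59 ± 0.06, the microtubule polymerase gene Ckap5 at 0.30 ± 0.06 and the bipolar kinesin gene Kif11 at 0.33 ± 0.07. Of 10 checkpoint partners 7 rose and 0 fell, with the RZZ subunit gene Kntc1 at 0.58 ± 0.08, Mad1l1, which carries Mad2 to kinetochores, at 0.38 ± 0.08 and the ATPase gene Trip13 at 0.32 ± 0.09 in the authors' deposited table. Of 10 centriole duplication genes 6 rose and 0 fell, among them Pcnt at 0.58 ± 0.09, Sass6 at 0.53 ± 0.11 and Cdk5rap2 at 0.37 ± 0.07 in the authors' deposited table.

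Of the 26 remaining kinetochore genes 10 rose and 2 fell. The steepest fall there was that of Zwint, a partner of the outer kinetochore scaffold Knl1, at -0.54 ± 0.06 or 69.0% of siCtrl in the authors' deposited table (adjusted p = 7.99e-20), against Cenph at 0.42 ± 0.11 and Apitd1 at 0.45 ± 0.13. Of 15 remaining condensin and cohesin genes 5 rose and 1 fell, led by the cohesin gene Smc1a at 0.33 ± 0.07, its loader gene Nipbl at 0.30 ± 0.06 and the condensin gene Ncaph at 0.33 ± 0.07 in the authors' deposited table. The 1 that fell was the condensin gene Ncaph2, at -0.15 ± 0.05. The cytokinesis list had 5 that rose and 2 that fell of 10, with Kif20b at 0.32 ± 0.07, Kif23 at 0.27 ± 0.07 and the GTPase gene Rhoa at -0.33 ± 0.07 in the authors' deposited table.

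Of 18 genes of the anaphase-promoting complex and its cofactors 5 rose and 5 fell (27.8% each). Fzr1, which encodes the G1 activator Cdh1, fell by 0.62 ± 0.09 to 64.9% of siCtrl in the authors' deposited table, while its inhibitor gene Fbxo5 and the subunit gene Cdc27 each rose by 0.28, ± 0.09 and ± 0.06. Of 15 entry and exit switches 3 rose (20.0%) and 2 fell (13.3%), shares near those over the 10231 genes, with Cdc25a at 0.50 ± 0.08, and with the related phosphatase inhibitor genes Ensa at -0.32 ± 0.07 and Arpp19 at 0.31 ± 0.08 in opposite directions in the authors' deposited table. Of 17 DREAM and B-Myb regulators 3 rose (17.6%) and 2 fell (11.8%), likewise near those shares, with the repressors E2f7 at 0.37 ± 0.09 and E2f8 at 0.30 ± 0.09 and the DREAM subunit gene Lin54 at 0.26 ± 0.09 in the authors' deposited table.

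**Figure D3:**
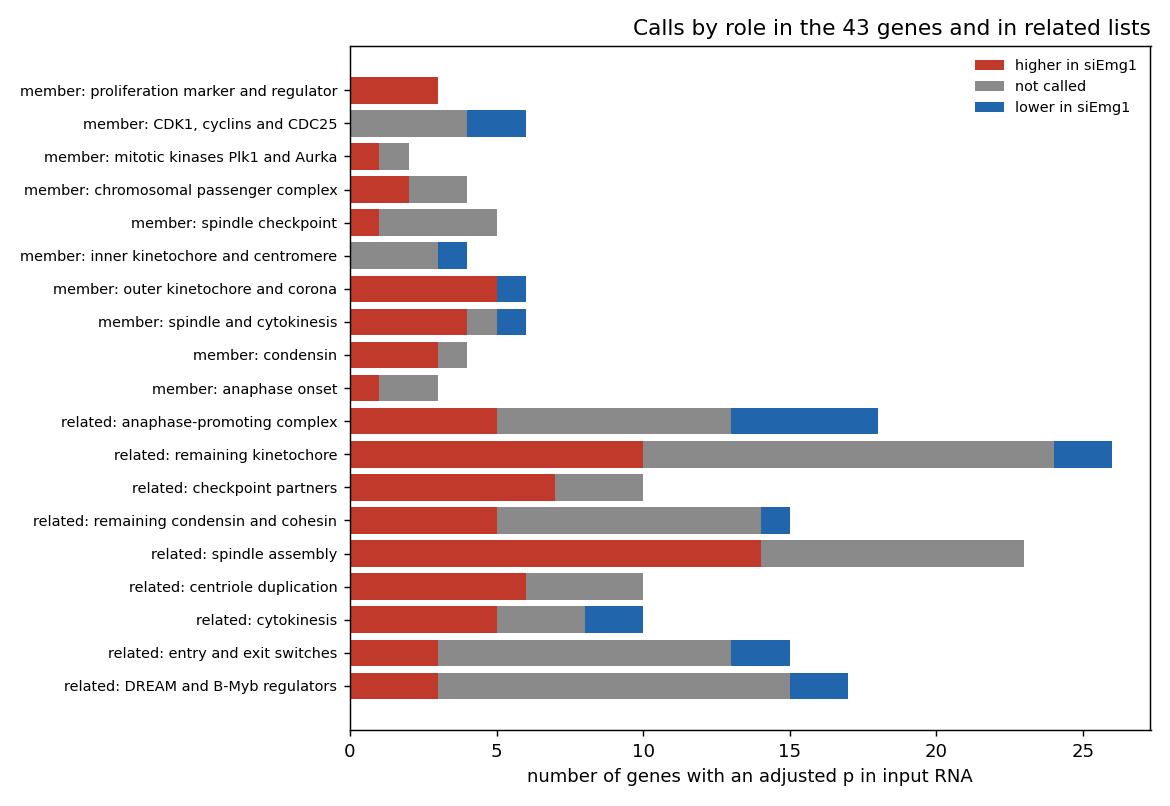
Number of genes that rose (red), were not called (grey) or fell (blue) in siEmg1 against siCtrl input RNA, by role among the 43 mitotic genes and in 9 lists of related genes. Of 23 spindle assembly genes 14 rose and 0 fell, and of 18 genes of the anaphase-promoting complex 5 rose and 5 fell.

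Differential m6A peaks were on 13 of the 43 genes (30.2%). Such peaks were on 14.8% of all genes with an adjusted p in input and on 22.0% of those with a mean at or above the lowest of the 43. m6A is laid down by the Mettl3 and Mettl14 complex, mainly near stop codons and in long internal exons. Of the 18 peaks 15 (83.3%) had a negative and 3 a positive change as deposited, where 53.1% of all 2114 peaks were negative. The table does not name the numerator of the change, so a negative sign cannot be read as loss or gain after knockdown, and it gives no error for it. Peaks on 1 gene share their transcripts, and Smc4 and Cenpe together held 6 of the 15. Coordinates are on mm10, and positions along a gene are percent of its RefSeq span from the 5′ end, introns included.

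The condensin gene Smc4 carried 3 negative-change peaks. The lowest change of all 18, -2.12, was on a short block of 90 bases at 4.73% of the span (chr3:69006106-69006195), with a fold enrichment of IP over input of 1.5 in the authors' deposited table. The other two, at the middle (chr3:69016182-69022369) and towards the 3′ end (chr3:69030409-69031837), had changes of -0.64 each and enrichments of 3.66 and 2.20 in the authors' deposited table. Smc4 is thus the gene with both the smallest adjusted p in input and the lowest peak change.

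Cenpe, the gene with the highest input value, also carried 3 negative-change peaks, and their sizes ran in order along the gene. In the authors' deposited table the changes were -1.09 at 9.80% of the span (chr3:135217279-135223199), -0.67 at 44.8% (chr3:135235535-135243836) and -0.38 at 60.9% (chr3:135246855-135260102). Their fold enrichments were 2.26, 11.9 and 4.57, and they spanned 7, 9 and 10 blocks. The corona gene Cenpf had 1 peak of 4 blocks in the 5′ part of its span (chr1:189671143-189680278), with a change of -0.63 and an enrichment of 3.35 in the authors' deposited table.

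Peaks with a single long block were on Mki67 and Cenpb. The Mki67 peak covered 6717 bases without a gap (chr7:135694279-135700995), with a fold enrichment of 15.4 and a change of -0.28 in the authors' deposited table. The Cenpb peak covered 1617 bases (chr2:131177768-131179384), with an enrichment of 13.3 and a change of -0.27 in the authors' deposited table. These strongly enriched peaks had the negative changes nearest 0.

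The remaining negative changes were on genes of several roles. Incenp had a peak of 7 blocks towards its 3′ end (chr19:9874328-9878336) with a change of -1.01 and an enrichment of 3.45 in the authors' deposited table. The peaks on Top2a (chr11:98996816-98999221, -0.60), Cdk1 (chr10:69346103-69352912, -0.60), Aurka (chr2:172356728-172356968, -0.53) and Bub1b (chr2:118598300-118598450, -1.0) had enrichments of only 1.37, 1.77, 1.72 and 1.23 in the authors' deposited table. With the first Smc4 peak they were the 5 of 18 under 2, and the median over the whole list of peaks was 5.525. The Cdk1 peak began at the first base of the span, and that on Bub1b lay in its first 1%.

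The 3 positive changes were on peaks in the 3′ part of their genes. Negative changes lay there as well, among them that on Aurka at 95.5% of the span and 1 on Smc4 at 89.6%. Nuf2 had the largest, 0.77, on a peak of 565 bases at 98.9% of the span (chr1:169498023-169498587), with the highest enrichment of the 18, 19.6, in the authors' deposited table. Birc5 had 0.27 on a peak that ended at the last base of the span (chr11:117855174-117855743), with an enrichment of 3.75 in the authors' deposited table. Espl1 carried both signs on neighbouring peaks: -0.79 at chr15:102315243-102315513 and 0.42 at chr15:102316143-102317153, with enrichments of 5.05 and 11.5 in the authors' deposited table. The false discovery rate of the 18 changes was at most 5.37e-05, on the positive peak of Espl1.

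**Figure D4:**
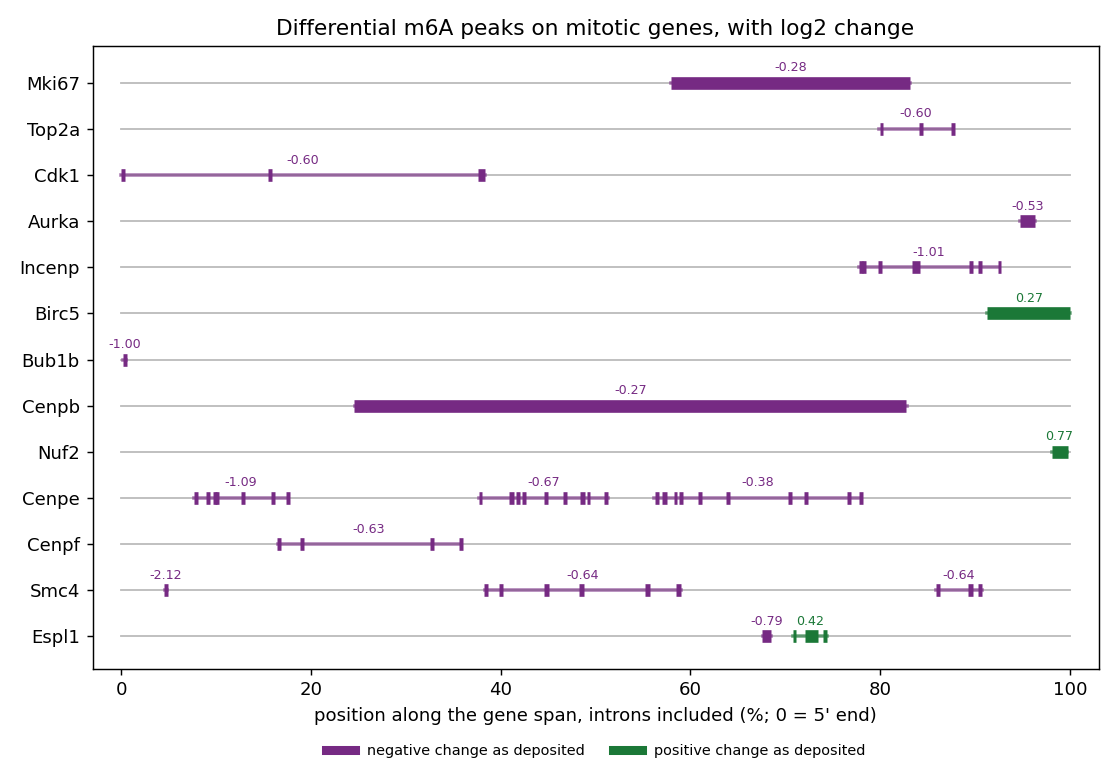
Differential m6A peaks on 13 mitotic genes along the gene span (percent, introns included, 0 at the 5′ end), with thick marks for peak blocks, thin lines joining blocks of 1 peak, and the log2 change as deposited above each, purple for negative and green for positive. The positive changes on Birc5 (0.27) and Nuf2 (0.77) lie at the 3′ end, and the negative change on Aurka (-0.53) lies near it. The lowest change, -2.12 on Smc4, lies near the 5′ end.

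Set beside input RNA, 8 of the 13 genes with a peak rose, 0 fell and 5 were not called, and of the 30 genes without one 12 rose, 5 fell and 13 were not called. Only negative-change peaks were carried by 6 genes that rose (Mki67, Top2a, Incenp, Cenpe, Cenpf and Smc4) and by 4 that were not called (Cdk1, Aurka, Bub1b and Cenpb). Nuf2 rose with a positive-change peak, Espl1 rose with both signs, and Birc5 was not called. The 5 falling genes, Ccnb1, Ccnb2, Cenpa, Spc25 and Anln, had no differential peak. Over all genes with a mean at or above the lowest of the 43, peaks were on 27.3% of those that rose, 20.7% of those that fell and 20.2% of those not called. The 0 of 5 was not tested against these shares. Input reads may enter the peak change, which the sources used here do not state, so the values are only set side by side.

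**Figure D5:**
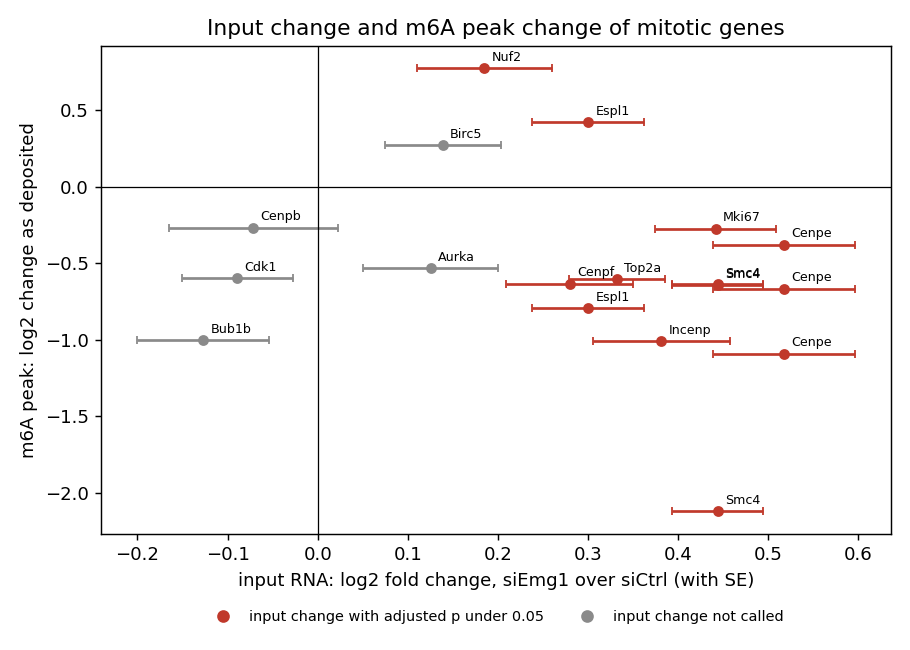
Log2 change of each of the 18 m6A peaks as deposited (vertical) against the log2 fold change of siEmg1 over siCtrl input RNA of its gene (horizontal, with SE), red where the input change was called and grey where it was not. Cenpe at 0.52 and Smc4 at 0.44 lie farthest right, each with 3 negative peak changes.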

How the data were processed

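The submitters' processing notes name Trimmomatic, HISAT2, DESeq2 and the mm10 build; for counter, peak caller, pooling and versions, the sources used here name none. The first table holds the authors' DESeq2 results for input RNA, siEmg1 against siCtrl, 2 libraries each. Its mean normalised count is a signal deposited by the authors, its fold change and SE were deposited by the authors on a log2 scale, its Wald statistic is a score deposited by the authors, and its p-value and adjusted p-value (Benjamini-Hochberg over 12807 genes) were deposited too. The second lists differential m6A peaks, with fold enrichment as a ratio, change as log2 and log10 of the false discovery rate as a score, all deposited by the authors. The direction of the first was read from Emg1. Depth per library is unknown, so no count model was fitted, and the SE (0.051 to 0.121 for the 43 genes) gives the precision.

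Genes were called at an adjusted p under 0.05, and 95% intervals are 1.96 SE either side. The 43 genes and all lists were chosen with earlier results of these data known. All members and their peaks are named, and of each related list the 3 genes with the smallest adjusted p. Further kinetochore and condensin genes, Ncaph2 among them, and genes under other observations were named outside this rule. RefSeq spans of 17 members overlap another gene, of 9 a coding one (Foxm1, Ccna2, Aurka, Cenpt, Prc1, Anln, Nusap1, Ncapg and Cdc20), and the use of strand in counting is not stated. Promoters (RefSeq, GRCm38.p6) were searched on both strands. Alternatives were other thresholds, adjustment over every gene, a minimum mean, a minimum size, and centring, all applied to the deposited values. The code for adjustment and centring was first checked on simulated data, from which no value is reported. The work was done in Python 3.11.15 with scipy 1.17.1, pandas 2.3.3, matplotlib 3.10.9 and numpy 2.4.6.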

Additional observations from a re-analysis of the deposited data

How the results depend on the processing

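With a log2 fold change of at least 0.3 required as well, 9 of the mitotic genes rose and 1, Cenpa, fell, instead of 20 and 5. At an adjusted p under 0.01, 14 rose and 2 fell (Cenpa and Anln), and of the related genes 39 rose and 5 fell, instead of 58 and 14. Adjusted over every gene with a p, 58 of the related genes rose and 12 fell. At an adjusted p under 0.1, Ccna2, Birc5 and Bub3 were called as well, for 23 that rose. Shares over all genes were not computed at these settings, so the counts stand without a background. Adjusting over every gene with a p, or centring on the median fold change of well-expressed genes (0.0077, at means from 100 up), ended the call of Nuf2 alone among the 43, and the minimum mean of 100 ended none. Of the 27 related genes named for their adjusted p, 6 fell short of the size of 0.3, Lin54 lost its call at 0.01, and the other alternatives ended none of their calls. The median of 0.15 lay between 0.14 and 0.15 under its 3 alternatives, and 0 of the 43 genes changed direction under any alternative while called. Of the 13 genes with a differential peak, 9 had one with an enrichment of at least 2, 10 had one with an absolute change of at least 0.5, and all 13 had one at a false discovery rate under 0.01. No paired analysis was possible because the tables hold results of the authors' tests and no values per library, and for the same reason no library was left out in turn. The number of libraries limits these results to what the authors' SE carries: the smallest change called among the 43 genes was 0.18 in size (Ccnb1), and the largest not called was 0.16 (Cenpt).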

Other observations

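Of the 144 related genes 33 (22.9%) held 38 differential peaks. Such peaks were on 14.8% of all genes with an adjusted p in input, and on 22.0% of those with a mean at or above the lowest of the 43 (799.6). The means of the 144 went down to 202.1, so neither share was matched to them in expression. Of the 38 peaks 25 (65.8%) had a negative and 13 a positive change as deposited, where 53.1% of all peaks were negative. The genes named here were chosen after their values were seen. The cohesin gene Smc1a, like the condensin gene Smc4, carried 3 negative-change peaks, at -1.22, -0.74 and -0.56 in the authors' deposited table, and its partner gene Smc3 had 1 at -0.90. Hjurp, the chaperone that deposits Cenpa at centromeres, had 3, at -1.27, -0.10 and -1.10, with enrichments of 3.83, 20.8 and 1.43 in the authors' deposited table. The kinetochore genes Mis12 and Nsl1, subunits of 1 complex, had positive-change peaks of 0.54 and 0.64, while Pmf1, of the same complex, had one of -0.81 in the authors' deposited table. The highest change in these lists was that of Rbl1, which encodes the DREAM pocket protein p107, at 2.65 with an enrichment of 1.38 in the authors' deposited table.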
